A study of Arabidopsis thaliana with 6 samples.

Results

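AT4G23680 and AT1G70880 are genes of the Bet v 1-like, major latex protein type in Arabidopsis thaliana. They were followed over 6 oligonucleotide arrays of total RNA from 3-week-old plants. The groups were the vip5 mutant, the vip6 mutant and wild type (WT), with 2 arrays each. VIP5 is the plant relative of yeast Rtf1 and VIP6 that of yeast Ctr9, both part of the Paf1 complex that travels with RNA polymerase II. The labels give the genotype and the age. The mutant alleles and the tissue sampled are not given in the sources used here. Nothing says that the 2 arrays of a genotype come from separate cultures, so any p-value measures the scatter of the arrays alone, which may be technical. The 2 genes are 2 of the 13286 genes that a probe set names alone, and each is read by 1 probe set (254234_at for AT4G23680 and 262301_at for AT1G70880). They were selected on their measured intensities, which were higher on the mutant arrays than on the WT arrays. Their differences from WT are therefore given as a description with no test, and tests are kept for the difference between the mutants and for other genes.

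Proteins with the Bet v 1 fold, named after the major birch pollen allergen, are small and enclose a large hydrophobic cavity that can hold lipids, hormones and other apolar molecules. The major latex proteins are the branch first found in the latex of opium poppy, and in Arabidopsis they form a family in which many genes lie side by side. The PYR/PYL receptors of the hormone abscisic acid share the fold and hold the hormone in that cavity. In the gene order of the reference assembly, AT1G70880 lies on chromosome 1 in a row of such genes that includes MLP28, MLP31, MLP34, AT1G70870 and MLP43. AT4G23680 lies on chromosome 4 directly beside AT4G23670, another gene of the family.

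AT4G23680 had deposited intensities of 1166.9 and 1948.6 on the vip5 arrays (replicates 1 and 2), 1161.1 and 1880.0 on the vip6 arrays, and 496.0 and 484.7 on the WT arrays. Every mutant array was brighter than both WT arrays. The means were 1558 ± 553 in vip5, 1521 ± 508 in vip6 and 490.4 ± 7.99 in WT (SD, n = 2 each), which makes the mutant means 3.18 and 3.10 times the WT mean in vip5 and vip6. On the log2(intensity + pseudocount) scale the limma model gave differences from WT of 1.55 in vip5 and 1.52 in vip6, each with a standard error of 0.30. The pseudocount was 39.3 intensity units, and on this scale the change of dim probe sets is understated. Among all probe sets of an array, AT4G23680 stood at the 86.8 and 92.4 percentiles in vip5, the 86.7 and 91.9 percentiles in vip6 and the 71.5 percentile on both WT arrays.

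AT1G70880 had intensities of 63.2 and 137.5 in vip5, 123.0 and 150.4 in vip6, and 10.8 and 8.2 in WT (replicates 1 and 2). Again every mutant array lay above both WT arrays, and the lowest mutant value was that of vip5 replicate 1. The means were 100.4 ± 52.5 in vip5, 136.7 ± 19.4 in vip6 and 9.50 ± 1.84 in WT (SD, n = 2 each). On the log2 scale the differences from WT were 1.46 in vip5 and 1.85 in vip6, each with a standard error of 0.27. The probe set was dim throughout. It stood at the 32.6 and 44.7 percentiles of the vip5 arrays, the 43.2 and 46.5 percentiles of the vip6 arrays and the 12.5 and 10.6 percentiles of the WT arrays. The table holds no background values or detection calls, so it cannot be said whether any transcript was measured in WT, and no fold of the linear means is given. Its log2 difference depends on the pseudocount, and was 2.43 in vip5 and 2.92 in vip6 with a pseudocount of 9.84, and 0.61 in vip5 and 0.82 in vip6 with one of 157.

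**Figure D1:**
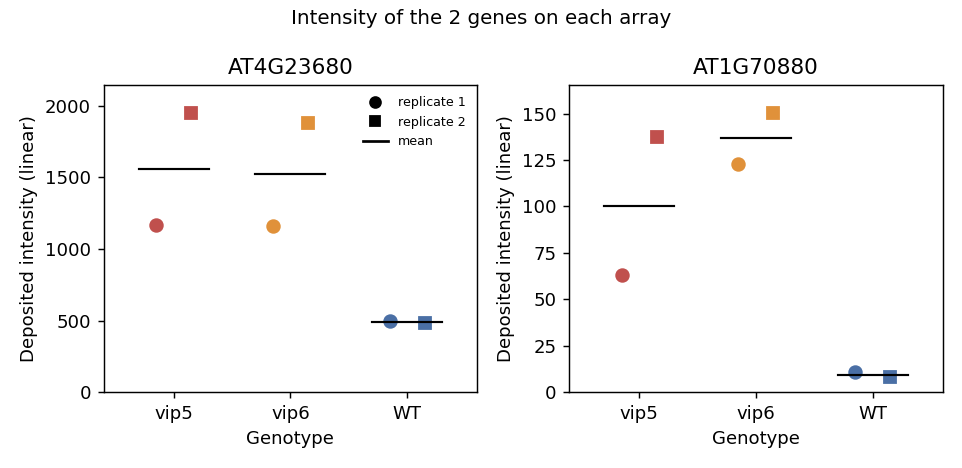
Deposited linear intensity (vertical axis, from 0) of AT4G23680 (left) and AT1G70880 (right) in vip5, vip6 and WT. Circles are replicate 1, squares replicate 2 and bars group means of 2 arrays; all mutant points lie above both WT points, and in both mutants and both genes the square lies above the circle.

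All 4 mutant arrays above both WT arrays was a common pattern, shown by 12.5% of the 14323 probe sets bright enough to be tested. The limma test against WT called 0.0768% of them in vip5 and 0.105% in vip6. Ordered by log2 difference from WT, highest first, AT4G23680 was at place 15 in vip5 and at place 15 in vip6, and AT1G70880 at place 20 in vip5 and place 5 in vip6. These places describe the choice of the genes and are no support for it. AT1G70880 entered the tested set only through the mutants. It lay above the 40th percentile on 3 arrays, none of them WT, whereas AT4G23680 did so on all 6.

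The replicates of the mutants were further apart than those of WT. For AT4G23680, replicate 2 exceeded replicate 1 by 0.72 on the log2 scale in vip5 and 0.68 in vip6, against -0.03 in WT. Only 3.18% of tested probe sets had a larger excess in vip5, and 3.61% in vip6. For AT1G70880 the excess was 0.79 in vip5, with 2.32% of probe sets above it, and 0.22 in vip6, with 24.5% above it, against -0.08 in WT. The difference from WT is thus larger among the arrays numbered 2. For AT4G23680 it was 1.17 within number 1 and 1.92 within number 2 in vip5, and 1.17 within number 1 and 1.87 within number 2 in vip6. For AT1G70880 it was 1.03 within number 1 and 1.90 within number 2 in vip5, and 1.69 within number 1 and 1.997 within number 2 in vip6. What the replicate number marks is not given in the labels, and its part in these values was not tested.

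The mutants were set against each other to ask whether the level of either gene depends on which Paf1 complex gene is mutated. The difference itself was not used to choose the genes, but the vip5 and vip6 values in it were. A choice on higher values in the mutants can favour genes with similar values in both. AT1G70880 also entered the tested set only through mutant arrays. The test is thus not independent of the choice. For AT4G23680, vip6 minus vip5 was -0.03 on the log2 scale with a standard error of 0.30 and a 95% interval of -0.74 to 0.68 (limma adjusted p = 0.99997). For AT1G70880 it was 0.38 with a standard error of 0.27 and an interval of -0.24 to 1.01 (limma adjusted p = 0.99997). Both intervals include 0. They are for single probe sets. They allow a sizeable difference in either direction for AT4G23680 and a larger one towards vip6 for AT1G70880. Within number 1 and within number 2, vip6 minus vip5 was -0.007 and -0.05 for AT4G23680, and 0.66 and 0.10 for AT1G70880. The intervals come from a fit that takes no account of the replicate number. With 1 array left out, the difference ranged from -0.39 to 0.33 for AT4G23680 and from -0.01 to 0.78 for AT1G70880, so its direction turns with single vip5 or vip6 arrays for the first gene and without vip5 replicate 1 for the second. Over all probe sets limma called 0 of 14323 in this comparison, and 220 (1.54%) had an unadjusted p below 0.05. That WT was lowest for both genes was set by how they were chosen, and no order was shown between vip5 and vip6.

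Other genes of the major latex protein family were read beside these 2, and the 3 that could be tested had means near or below those of WT in the mutants. A list of 28 family loci was used, of which 17 are named alone by a probe set, and without AT4G23680 and AT1G70880 there remain 15. Of these 15, 3 were bright enough to be tested, AT1G23130, AT3G26450 and AT4G23670. None of the 3 passed the limma test in either mutant (0 higher and 0 lower), where 0.0768% of all tested probe sets did in vip5 and 0.105% in vip6, so a count of 0 of 3 says nothing particular to the family. Before adjustment, AT3G26450 and AT4G23670 in vip5 and AT3G26450 in vip6 had a p below 0.05 (2 genes and 1 gene), as did 10.9% of all tested probe sets in vip5 and 9.88% in vip6. Their median log2 difference from WT was -0.60 in vip5 and -0.20 in vip6, against -0.0042 and -0.01 over all tested probe sets.

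AT4G23670, the gene next to AT4G23680, had intensities of 2561.8 and 2965.0 in vip5, 3418.6 and 3889.2 in vip6, and 4556.4 and 3864.1 in WT. Both vip5 arrays lay below both WT arrays, a pattern shown by 20.8% of tested probe sets, while vip6 and WT overlapped. Its log2 difference was -0.60 in vip5 (limma adjusted p = 0.346) and -0.20 in vip6 (limma adjusted p = 0.804), beside 1.55 in vip5 and 1.52 in vip6 for AT4G23680. AT3G26450 had intensities of 838.4 and 588.5 in vip5, 1024.2 and 694.3 in vip6, and 1461.7 and 1200.7 in WT. All 4 mutant arrays lay below both WT arrays, as in 13.2% of tested probe sets. Its log2 differences from WT were -0.88 in vip5 and -0.63 in vip6 (limma adjusted p = 0.295 and 0.491). AT1G23130 was bright on every array, at 9875.1 and 11024.8 in vip5, 9944.7 and 11378.1 in vip6, and 9900.8 and 10488.3 in WT. Its log2 differences from WT were 0.03 in vip5 and 0.06 in vip6 (limma adjusted p = 0.965 and 0.957).

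The other 12 named family genes were below the filter, with intensities between 0.5 and 83.2 on all arrays, and no statement on their change is made from the main test. AT3G26460 had 45.8 and 74.8 in vip5, 68.0 and 61.6 in vip6, and 25.6 and 29.5 in WT. AT4G14060 had 60.2 and 57.1 in vip5, 66.1 and 63.1 in vip6, and 51.0 and 35.0 in WT. In both genes all 4 mutant arrays lay above both WT arrays, as in 5.91% of the 8423 probe sets below the filter. Other dim genes had 1 mutant apart from WT. AT1G23120 had 54.4 and 25.8 in vip5, 72.6 and 31.7 in vip6, and 61.7 and 83.2 in WT, with vip5 below WT. AT1G24000 had 34.3 and 20.2 in vip5, 19.2 and 1.3 in vip6, and 25.1 and 41.7 in WT, with vip6 below WT. AT1G14930 was above WT in vip5 and AT1G30990 in vip6, at intensities of at most 32.1. When every probe set was tested without the filter, AT3G26460 had log2 differences of 0.56 in vip5 and 0.64 in vip6 (limma adjusted p = 0.469 and 0.465), and AT4G14060 had 0.26 in vip5 and 0.34 in vip6 (limma adjusted p = 0.706 and 0.658). AT1G70870, the family gene next to AT1G70880, had 12.2 and 30.3 in vip5, 1.9 and 19.6 in vip6, and 13.4 and 2.1 in WT, with overlapping groups. Among the 12, vip5 and WT overlapped in 8 genes and vip6 and WT in 8, close to the shares of 66.4% and 66.5% over all probe sets below the filter. AT1G14940, AT1G14950, AT1G14960, AT1G24010 and AT5G28010 overlapped in both comparisons, as did AT1G70870. MLP28, MLP31, MLP34, MLP43, MLP423, MLP328 and MLP329 are among the 11 family loci that no probe set names alone in the annotation used, and neither are the 14 PYR/PYL receptor loci or the 6 Paf1 complex loci, VIP5 and VIP6 included. The mutant labels were therefore not checked against the mutated genes. Whether probes of one family gene also bind transcripts of its relatives was not tested, since the probe letters were not used here.

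**Figure D2:**
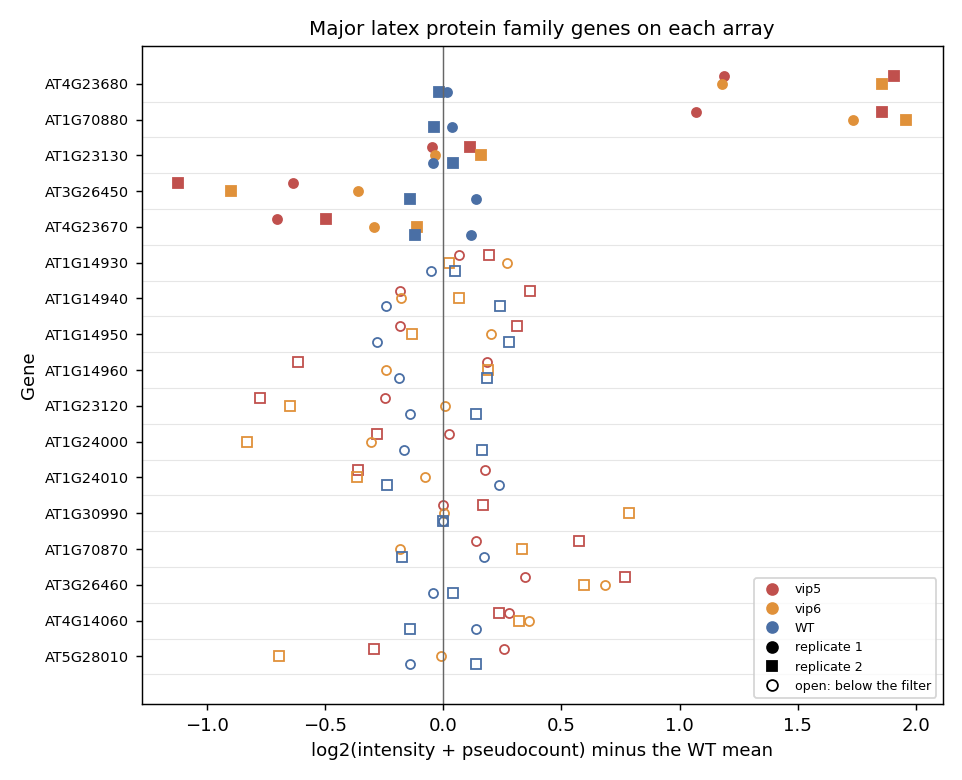
log2(intensity + pseudocount) minus the WT mean (horizontal axis) for 17 family genes, AT4G23680 and AT1G70880 at the top, in vip5, vip6 and WT. Circles are replicate 1 and squares replicate 2, filled where the probe set was tested and open where it was below the filter; the mutant points of the top 2 genes lie between 1.07 and 1.96, and those of AT3G26450 lie below 0.

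Neighbouring genes on the chromosome were read for comparison, as the 3 nearest on each side that a probe set names alone. The farthest lie 9 genes from AT4G23680 and 10 genes from AT1G70880. Around AT4G23680, 5 of the 6 neighbours were tested, and their log2 differences from WT lay between -0.60 and 0.12 in vip5 and between -0.20 and 0.04 in vip6. The lowest of these in both is AT4G23670. Around AT1G70880, 3 of the 6 were tested, AT1G70810, AT1G70820 and AT1G70900, which lie 7, 6 and 4 genes away. Their differences were between 0.07 and 0.35 in vip5 and between -0.03 and 0.37 in vip6. The highest is AT1G70820, at 2239.8 and 1652.4 in vip5, 2117.0 and 1795.1 in vip6, and 1440.9 and 1561.8 in WT. All 4 mutant arrays lay above both WT arrays for it, as in 12.5% of tested probe sets. The same held for AT1G70950, which was below the filter, as in 5.91% of such probe sets. AT1G70810 and AT1G70900, and AT1G70870 and AT1G70910 below the filter, overlapped WT in both mutants. Of all probe sets below the filter, 66.4% overlapped WT in vip5 and 66.5% in vip6. That share was not counted for tested probe sets. Near AT4G23680, AT4G23610, AT4G23620, AT4G23720 and AT4G23740 overlapped WT in both mutants. AT4G23730, like AT4G23670, had both vip5 arrays below both WT arrays, as in 20.8% of tested probe sets. In limma, 0 of the 8 tested neighbours passed in either mutant, where 0.0768% of all tested probe sets did in vip5 and 0.105% in vip6. The unadjusted limma p was below 0.05 for 1 in vip5, AT4G23670, and for 0 in vip6, against 10.9% and 9.88% of all tested probe sets. Several closer genes, such as DIR6 beside AT4G23680, are not named alone by a probe set.

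The genes whose pattern over the 6 arrays was most like each of the 2 were found by the root mean square difference of log2 values, each probe set centred on its own mean. Each gene was set against 7675 named and tested probe sets, whose median difference was 0.815 from AT4G23680 and 0.865 from AT1G70880. AT4G23680 was the nearest of all to AT1G70880, at 0.22, and AT1G70880 was the fourth nearest to AT4G23680. Both were chosen for higher values in the mutants on these same arrays, and AT1G70880 entered the compared set only through mutant arrays. Their nearness is therefore no support for a shared pattern, and how much of it comes from the choice was not tested. With a pseudocount of 9.84 their log2 differences from WT lay further apart. They were 2.43 in vip5 and 2.92 in vip6 for AT1G70880, and 1.60 in vip5 and 1.57 in vip6 for AT4G23680. The nearest to AT4G23680 was AT3G05400, a sugar transporter gene of the ERD6-like type, at a difference of 0.17. It had 491.0 and 691.8 in vip5, 444.5 and 697.8 in vip6, and 152.0 and 222.9 in WT, and so was also brighter on replicate 2. Then came AT1G21540, of the AMP-binding enzyme type, at 0.21, AT5G64870, a flotillin-like gene, at 0.22, and, after AT1G70880, AT3G12000 at 0.26. The 5 nearest to AT1G70880 were AT4G23680, AT5G64870 (0.27), the pseudogene AT1G20390 (0.27), AT1G02190 of the CER1-like wax synthesis type (0.28) and AT3G05400 (0.29). AT5G64870 and AT3G05400 are the 2 genes on both lists. No gene of the family other than these 2 was among them.

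**Figure D3:**
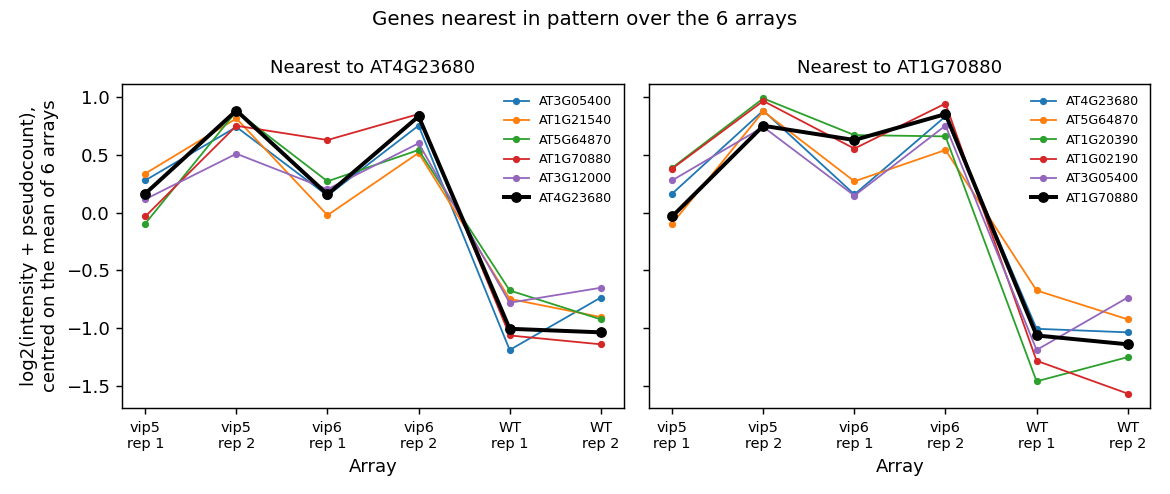
log2(intensity + pseudocount), centred on each probe set's mean over 6 arrays (vertical axis), by array for AT4G23680 (left, black) and AT1G70880 (right, black) and the 5 named genes nearest to each in colour. The vip5 and vip6 arrays lie above the WT arrays in each line, and AT4G23680 is higher on replicate 2 than on replicate 1 in both mutants.

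RNA was taken from plants with no tissue named, so markers of organs were read beside these values. In such bulk samples, fewer cells of a type and less RNA per cell cannot be told apart. Of 16 root marker loci, 6 have a probe set of their own, and the summed intensity was 1908.4 and 1625.3 in vip5, 2013.9 and 1994.0 in vip6, and 4016.6 and 3931.1 in WT. Nearly all of each sum came from PYK10, JAL23 and AT1G62500, since the other 3 lay between 1.2 and 51.1. The list was chosen with earlier results of these data known. In 5 of the 6 (EXPA7, PYK10, JAL23, AT3G01190 and AT1G62500) all 4 mutant arrays lay below both WT arrays. This holds for the 3 that were tested, PYK10, JAL23 and AT1G62500, beside 13.2% of all tested probe sets, and for 2 of the 3 below the filter, beside 8.42% of all such probe sets. AT5G17820, a peroxidase gene, overlapped between the groups at 4.3 to 9.3, and AT3G01190, another, was near 0 in all, at 1.2 to 2.2.

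JAL23, a jacalin-type lectin gene, had 214.1 and 109.6 in vip5, 157.4 and 193.0 in vip6, and 662.6 and 830.0 in WT. Its log2 differences from WT were -2.01 in vip5 and -1.87 in vip6 (limma adjusted p = 0.0757 and 0.0780). AT1G62500 had 776.1 and 893.2 in vip5, 1118.5 and 915.1 in vip6, and 2200.4 and 1975.7 in WT, with differences of -1.28 in vip5 and -1.01 in vip6 (limma adjusted p = 0.0886 and 0.157). PYK10, a beta-glucosidase gene of root and seedling endoplasmic reticulum bodies, had differences of -0.54 in vip5 and -0.45 in vip6 (limma adjusted p = 0.450 and 0.576). In limma, 0 of the 3 tested root genes passed in either mutant, where 0.0768% and 0.105% of all tested probe sets did in vip5 and vip6. Before adjustment, 3 in vip5 and 2 in vip6 had a p below 0.05, as did 10.9% and 9.88% of all. These genes lay lower in the mutants while AT4G23680 and AT1G70880 lay higher, and the part of tissue make-up in the values of the 2 genes was not tested.

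The leaf genes LHCB4.1 and RCA, of light harvesting and of Rubisco activation, overlapped between all groups. Their summed intensity was 46165.7 and 87143.9 in vip5, 43673.9 and 79405.9 in vip6, and 46910.2 and 68151.9 in WT, so replicate 2 was brighter in each group. The highest intensity on the array also rose with the number. It was 29997.8 and 63343.6 in vip5, 30347.9 and 49458.4 in vip6, and 29029.8 and 44814.6 in WT. The part of array scale in these sums was not tested. The 1 flower marker named, AT5G07230, had 199.0 and 168.2 in vip5, 143.7 and 195.6 in vip6, and 159.9 and 162.7 in WT, with log2 differences of 0.15 in vip5 and 0.05 in vip6 (limma adjusted p = 0.846 and 0.971). Its vip5 arrays lay above both WT arrays, while vip6 and WT overlapped. The share of all tested probe sets with vip5 above WT was not counted. No seed marker of the 3 on the list is named by a probe set.

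**Figure D4:**
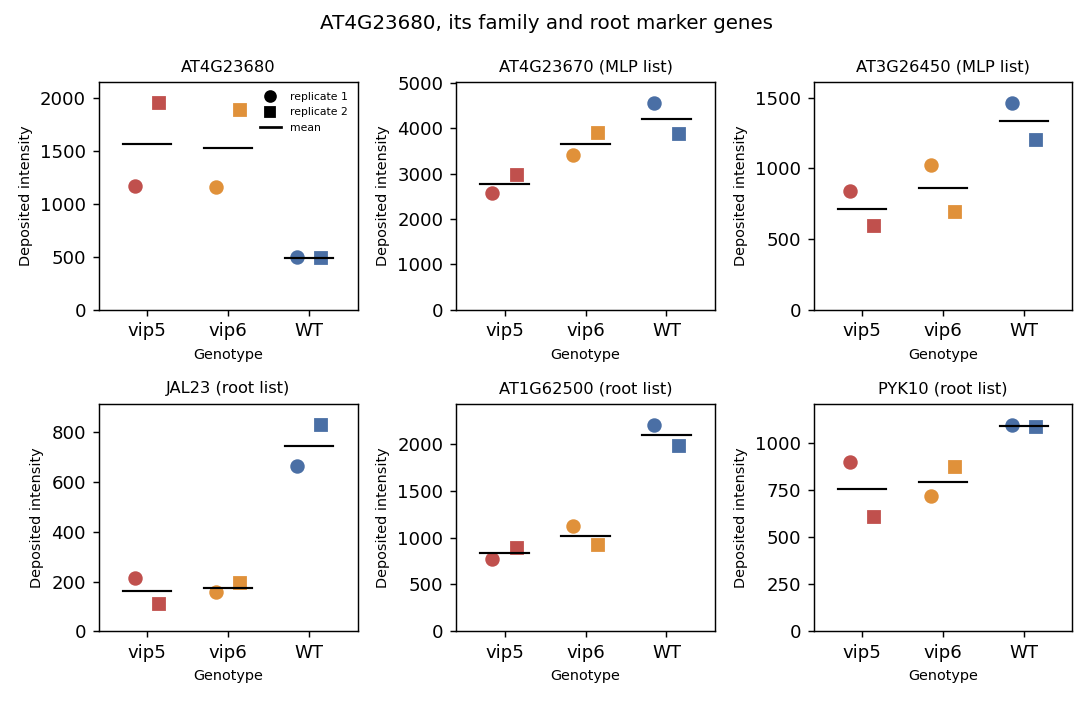
Deposited linear intensity (vertical axes, from 0, each panel on its own scale) of AT4G23680, the family genes AT4G23670 and AT3G26450, and the root list genes JAL23, AT1G62500 and PYK10 in vip5, vip6 and WT. Circles are replicate 1, squares replicate 2 and bars group means of 2 arrays; AT4G23680 is higher in the mutants, and the 3 root list genes and AT3G26450 have all mutant points below both WT points.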

How the data were processed

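The deposited table gives an intensity on a linear scale for each probe set and array. How the authors computed it is not given in the sources. From the values, each array was scaled to a common mean of 500.0 after the lowest and highest 2% were left out, so no further normalization was applied. Values were tested as log2(intensity + 39.3), the pseudocount being the middle of the arrays' 25th percentiles. Control probe sets (64) were left out, and of the other 22746 the 14323 brighter than their array's 40th percentile in 2 or more of the 6 arrays were tested. A linear model with the 3 genotypes as means was run on the 6 arrays in limma 3.58.1 under R 4.3.3 (lmFit, eBayes), with two-sided p-values adjusted after Benjamini and Hochberg for all tested probe sets and a threshold of 0.05. It was tested on simulated data first. SDs are those of the deposited intensities. The number of arrays limits the precision.

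Genes were named from the platform annotation through gene identifiers to TAIR10.1, used for names and gene order only: 13513 probe sets name 1 gene (13436 matched a locus), 503 name several and 8794 are not listed. Named genes are the 2 genes, the list genes a probe set names alone, 3 neighbours on each side, the 5 nearest in pattern and tissue markers. The members and lists were chosen with earlier results of these data known. Differences between numbers 1 and 2 correlated over tested probe sets at 0.306 for vip5 with WT, 0.308 for vip6 with WT and 0.655 for vip6 with vip5, and 2 numbers do not establish pairing. Figures used matplotlib 3.10.9. Alternatives covered normalization, pseudocount, filter, variance model, arrays in the fit, replicate block and single arrays left out.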

Additional observations from a re-analysis of the deposited data

How the results depend on the processing

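AT4G23680 was higher than WT by 1.19 to 1.91 in vip5 and by 1.18 to 1.86 in vip6 over the alternatives run. Both ends of each range were set by leaving out 1 array of that mutant. For the 2 genes every mutant array lay above both WT arrays, and they were chosen for higher mutant values. That the direction stayed is therefore no support for a difference. AT1G70880 was higher than WT by an amount that followed the pseudocount: 2.43 in vip5 and 2.92 in vip6 with a pseudocount of 9.84, and 0.61 and 0.82 with one of 157. With 1 array left out it lay between 1.07 and 1.86 for vip5, and between 1.73 and 1.96 for vip6. In the fit of vip5 and WT alone it was not bright enough to be tested. For vip6 minus vip5, neither gene passed the test under any alternative run. With the pseudocount of 9.84, 4 of the 5 nearest genes remained for each of the 2. Which gene left each list is not given here. AT4G23680 then differed from WT by 1.60 in vip5 and 1.57 in vip6, further from the values of AT1G70880. The likeness of the 2 genes to each other thus depends on the pseudocount.

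The 11 probe sets called in vip5 became 4 with the pseudocount of 9.84, 2 without the filter, 17 with trended robust variance, 18 in the fit of vip5 and WT alone, and 0 to 18 with 1 array left out (18 if a vip6 array was dropped, 1 if vip5 replicate 1 was, and 0 if vip5 replicate 2 or a WT array was). The 15 called in vip6 became 24, 1 and 5 with that pseudocount, without the filter and with vip6 and WT alone, and 0 to 5 with 1 array left out (5 without a vip5 array, 0 without any other). With the replicate number as a block, 313 were called in vip5, 253 in vip6 and 1 in vip6 against vip5. The block left the log2 differences of the 2 genes as they were, and 1 of the 3 tested family genes, AT3G26450, then passed as lower in vip5 (limma adjusted p = 0.0366). Under it the root list genes JAL23 (0.0116 in vip5, 0.0148 in vip6) and AT1G62500 (0.0154 and 0.0351) also had limma adjusted p values below 0.05. The cause of these changes was not tested. The table has no background values, which limits what can be said of AT1G70880 in WT.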
